A study of Drosophila melanogaster with 14 samples.

Results

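The proximal end of the X chromosome of Drosophila melanogaster, next to the centromeric heterochromatin, carries the piRNA clusters 20A and flamenco. In the dm3 genome build it was taken as the 1-kb bins from position 20400001 to the end of the assembled arm at 22422827, chosen by position alone. These are 2023 of the 168744 bins of the genome. Cluster 20A lies from 21392001 to 21432000 and fills 40 bins, and flamenco lies from 21502001 to 21685000 and fills 183 bins. The limits of both clusters are rounded to kb and come from published cluster positions, not from the deposited files. The other 1800 bins form the rest of the stretch, with a segment distal of 20A, one between the clusters and one proximal of flamenco. No dm3 gene annotation was used, so bins are given by position and no exon or intron is assigned to them. In the Release 6 gene table of RefSeq, the neighbours of flamenco (lncRNA:flam) are lncRNA:CR44712 and the protein-coding gene DIP1 on one side and CG40813 on the other.

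All libraries came from ovaries of flies aged 3 to 14 days, and 8 libraries of the 14 samples of the series were analysed, the other 6 samples not being analysed here. All flies carried the driver P{GAL4::VP16-nos.UTR}CG6325MVD1, which is active in the germline. In shCuff ovaries it drove the hairpin TRiP.GL00054 against cuff (Cutoff), and in shWhite ovaries the hairpin TRiP.HMS00017 against the eye colour gene white, both inserted at attP2. The control for nuclear run-on was w[1118] with the driver and no hairpin, so its genotype differs from the shWhite control of the RNA libraries. Total RNA depleted of ribosomal RNA was sequenced in 2 shWhite and 2 shCuff libraries, poly(A)-selected RNA in 1 of each, and run-on RNA, which polymerases already on the template elongate once nuclei are isolated, in 1 shCuff and 1 control library. Whether the replicates are separate dissections is not stated, so a p-value here reflects the spread among these libraries, which may be technical. Replicate 1 of total RNA shares a title prefix, AC, with the poly(A) libraries, and replicate 2 shares the prefix ES with run-on. Each prefix gives 1 pair of total RNA libraries, called the AC pair and the ES pair. The driver acts in germline cells, whereas ovaries also hold somatic follicle cells with no hairpin. Since whole ovaries were sequenced, fewer cells of a type and less RNA per cell cannot be told apart. The files name no genes, so markers of germline and follicle cells were not analysed here.

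piRNAs are small RNAs that guide Piwi proteins to transposons, and most of them are cut from long precursor transcripts of piRNA clusters. Dual-strand clusters are transcribed on both strands in the germline and depend on the complex of Rhino, Deadlock and Cutoff, in which Cutoff is known to oppose termination of transcription. Uni-strand clusters resemble ordinary genes, with a promoter at one end and transcripts from one strand. Flamenco is the best known uni-strand cluster, is active in somatic follicle cells and restrains gypsy-family retrotransposons. Cluster 20A is a uni-strand cluster with activity in the germline. The series asks how Cutoff acts on termination by RNA polymerase II at piRNA precursors, and uni-strand clusters make such precursors without Rhino.

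The libraries held 2438627 to 10932667 reads, of which 0.443% to 0.939% lay in the stretch. Over all 8 libraries, 726 of the 2023 bins (35.9%) held no read, 13 of 40 in 20A and 76 of 183 in flamenco, against 42.0% of bins in the genome. The sources used here do not say how reads from repeated sequence were placed, a limit on all values of these repeat-rich loci. The library of shCuff replicate 2 stood apart from the others in total RNA. Only 9.50% of its covered bins in the stretch held 1 to 3 reads. The share was 54.6% for shWhite replicate 1, 47.9% for shCuff replicate 1 and 48.4% for shWhite replicate 2. Its reads in flamenco lay in 13 bins, against 47 in shWhite replicate 2, at nearly the same number of reads, 199 and 201. Values for each pair, and the fits without this library, are given with the results below.

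Levels in control ovaries came first, to place both clusters among their neighbours. Per kb, cluster 20A stood above the rest of the stretch in total RNA and run-on and below it in poly(A) RNA, whereas flamenco stood below the rest in all 3. Levels are given as RPKM, reads per kb per 1000000 library reads. In 20A the total RNA level was 6.80 RPKM in shWhite replicate 1 and 4.54 in shWhite replicate 2, while poly(A) RNA had 1.46 and run-on 29.4. In flamenco the corresponding levels were 0.615 and 0.193 in total RNA, 0.0346 in poly(A) RNA and, for run-on, 2.37. The rest of the stretch had 3.22 and 2.63 RPKM in total RNA, 2.87 in poly(A) RNA and, for run-on, 4.32. The order 20A, rest, flamenco thus held in total RNA and run-on, while in poly(A) RNA the rest came first. Flamenco differed more between the shWhite libraries than 20A or the rest did.

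**Figure D1:**
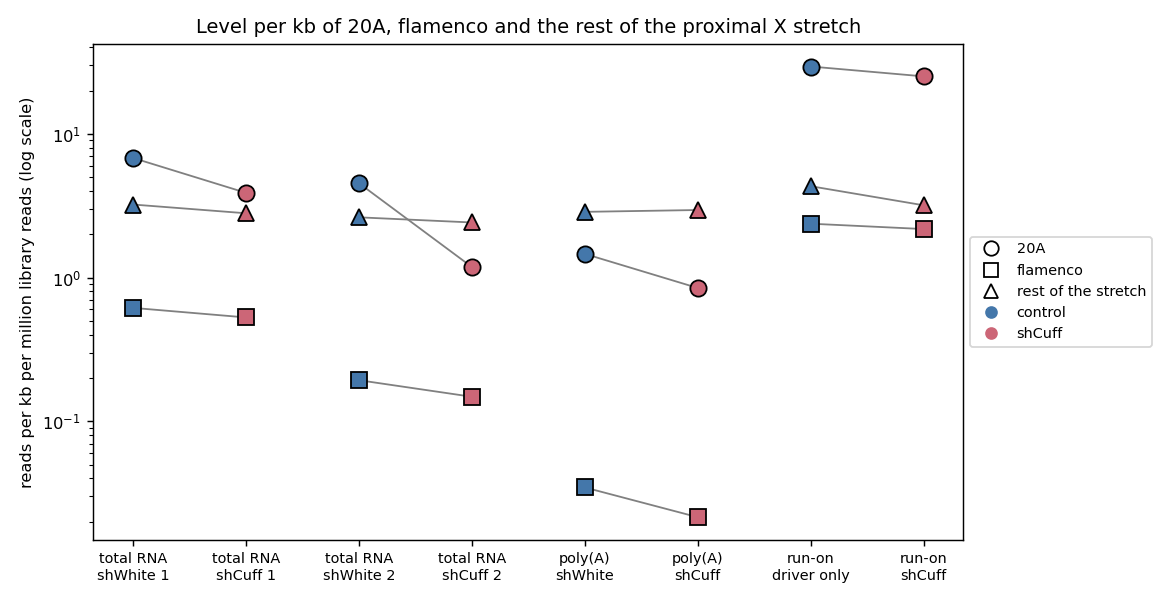
Level per kb (RPKM, log axis) of 20A, flamenco and the rest of the stretch in each of the 8 libraries, with control libraries in blue and shCuff libraries in red, and a grey line joining the libraries of a pair. The 20A points drop from 6.80 to 3.89 and from 4.54 to 1.18 in total RNA, whereas the points of the rest stay between 2.42 and 3.22.

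The poly(A) level was set against the total RNA level of the same library set to compare how much of each locus was recovered by poly(A) selection. The ratio of poly(A) RPM to total RNA RPM (RPM, reads per 1000000 library reads) is relative, since each library is scaled to its own total, and is not a fraction of molecules. Intervals in brackets are 95% exact conditional (Clopper-Pearson) intervals and cover counting error only. In shWhite the ratio was 0.215 (0.192 to 0.240) for 20A, 0.0563 (0.0414 to 0.0752) for flamenco and 0.889 (0.874 to 0.904) for the rest. Of the 178 complete 10-kb windows outside the clusters, 33 held at least 50 reads over both libraries, and all 33 had a higher ratio than either cluster, with a median of 0.886 and quartiles of 0.748 and 0.999. The median over such windows of the genome was 0.917. These comparisons rest on 1 library of each kind and have no test.

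The poly(A) reads of 20A were gathered near its proximal end. The bin from 21427001 held 240 of the 489 poly(A) reads of 20A in shWhite, or 49.1%, and without it the poly(A) to total RNA ratio of 20A was 0.126. The first 10 kb of 20A had a ratio of 0.0572 (0.0418 to 0.0768), the second 10 kb 0.164 (0.119 to 0.224) and the last 10 kb 0.372 (0.323 to 0.429). The intervals of the 3 sections do not overlap, so the ratio differed along the cluster beyond counting error. Flamenco was divided into 19 sections, each 10 kb long but for the last, of which 8 had 20 reads or more, and their ratios ran from 0.0141 to 0.117. All 8 were therefore below the last 10 kb of 20A. In shCuff, 20A had a ratio of 0.218 (0.189 to 0.25) and flamenco one of 0.0407 (0.0288 to 0.0563). Of 36 windows outside the clusters with at least 50 reads there, 2 had a lower ratio than 20A and 0 a lower one than flamenco. The intervals of the same cluster overlap between the genotypes, so a difference was not detectable at this depth, whereas the rest went from 0.889 to 1.05 (1.03 to 1.07).

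Run-on was set against total RNA of the second library set to compare signal of engaged polymerases with steady RNA. In the controls the ratio of run-on RPM to total RNA RPM was 6.48 (6.03 to 6.97) for 20A, 12.3 (10.6 to 14.3) for flamenco and 1.65 (1.62 to 1.68) for the rest. Both clusters thus had more run-on signal per steady RNA than the rest summed. They were not at the edge of the stretch in the controls, however. Of 59 windows outside the clusters with at least 50 reads, 22 had a higher ratio than 20A and 16 a higher ratio than flamenco. The value of 20A depended on its distal end, as it was 11.7 without the bin from 21392001, its bin with most reads over both libraries, 27.5 with limits 5 kb inward and 22.2 without its first 3 bins. In shCuff, 20A had a ratio of 21.2 (19.0 to 23.8), flamenco one of 14.7 (12.6 to 17.2) and the rest one of 1.32 (1.29 to 1.34). The interval of 20A lies above that of the controls, and the intervals of flamenco overlap. Both clusters were nearer the upper edge of the stretch in shCuff. Of 55 windows with at least 50 reads, 4 had a higher ratio than 20A and 4 a higher ratio than flamenco. The hairpin control and the driver control differ in genotype, and the shCuff side rests on replicate 2.

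Cluster 20A was then compared between shCuff and control ovaries. Its RNA was lower in shCuff in every pair, and the run-on signal was much closer to that of the control. In total RNA its level was 6.80 and 4.54 RPKM in shWhite and 3.89 and 1.18 RPKM in shCuff, so the groups did not overlap. This did not hold without its first 3 bins, a part singled out after its values were seen. The other 37 bins had 244.5 and 36.9 RPM in shWhite and 126.4 and 11.3 RPM in shCuff, so there the groups overlapped. The ratio of shCuff to shWhite was 0.572 (0.510 to 0.641) in the AC pair and 0.261 (0.230 to 0.295) in the ES pair, which differ from each other beyond counting error. In poly(A) RNA it went from 1.46 to 0.846 RPKM, a ratio of 0.579 (0.505 to 0.664). In run-on it went from 29.4 to 25.1 RPKM, a ratio of 0.854 (0.809 to 0.901). Among windows outside the clusters with at least 50 reads over the pair, 1 of 32 had a lower ratio than 20A in the AC pair, 1 of 51 in the ES pair and 3 of 36 in poly(A) RNA. In run-on, 40 of 60 had a lower ratio. Such windows are shorter than either cluster.

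The fit over 4355 features, which are 20A, flamenco and the 10-kb windows of the genome, gave 20A a log2 change of -1.37 (SE 0.34) in total RNA. This did not pass the quasi-likelihood test of edgeR, with a Benjamini-Hochberg adjusted p of 0.628 over all features. That fit called 1 feature of the genome (0.023%). Without the filter on low windows, the same test called 20A, with an adjusted p of 0.0036. It then called 98 of 12757 features of the genome. Within the pairs the log2 ratio was -0.81 (AC) and -1.94 (ES). Fits that left out a library had no term for library set, so they also carry the difference in level between the sets. In them the log2 change was -2.26 without shCuff replicate 1 and -1.42 without shWhite replicate 2. It was -0.84 without shWhite replicate 1 and -0.54 without shCuff replicate 2. Relative to the rest of the stretch, the log2 change of 20A was -1.21, from log2 ratios of -4.42 and -4.70 in shWhite and -5.02 and -6.52 in shCuff. The exact permutation test over the 4 libraries gave a two-sided p of 0.333, which is the smallest that 2 against 2 can give. With the limits of 20A moved 5 kb inward, the log2 change was -1.24 and the same permutation test gave 0.667.

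**Figure D2:**
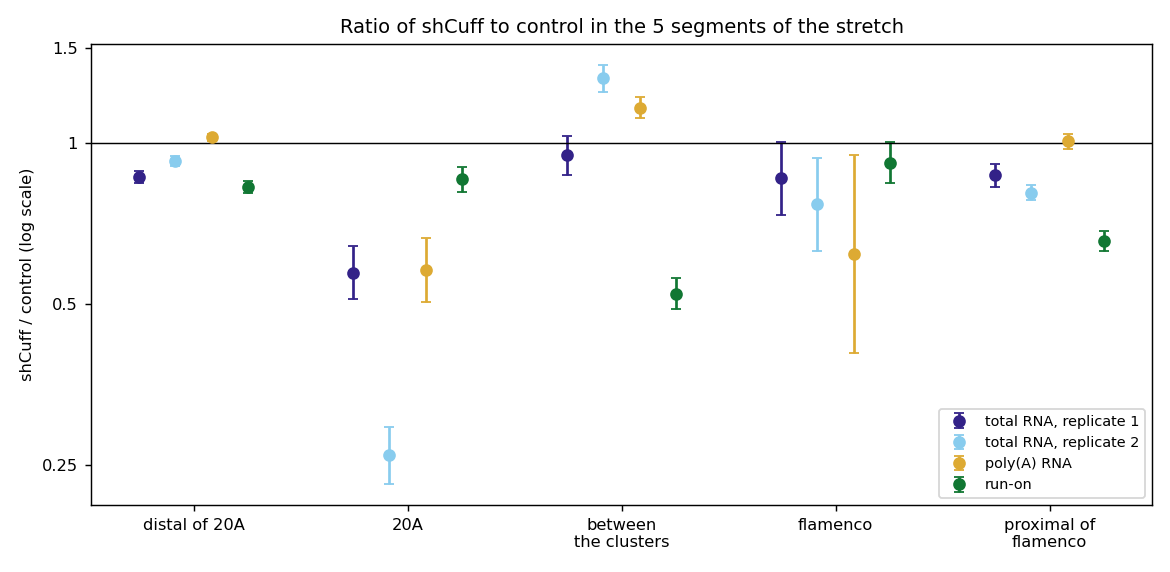
Ratio of shCuff to control (log axis) in the 5 segments of the stretch, for total RNA of both replicate pairs, poly(A) RNA and run-on, with 95% exact conditional intervals that cover counting error only. In 20A the 3 RNA ratios lie from 0.261 to 0.579 and the run-on ratio at 0.854, whereas between the clusters the run-on ratio is the lowest of the 4, at 0.523.

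The lower RNA level of 20A covered both parts of the cluster that held reads, but not its first bins in every pair. The 13 bins of 20A without a read in any library lay in its middle, and the third 10 kb held only 4 and 14 reads in the AC pair and 0 in the ES pair. The first 10 kb had a ratio of 0.556 (0.462 to 0.668) in the AC pair and 0.253 (0.221 to 0.289) in the ES pair. The second 10 kb had 0.433 (0.310 to 0.596) and 0.284 (0.128 to 0.583), and the last 10 kb had 0.601 (0.507 to 0.710) and 0.327 (0.223 to 0.471). In poly(A) RNA the corresponding ratios were 0.930 (0.632 to 1.38), 0.462 (0.295 to 0.715) and 0.551 (0.470 to 0.646). In run-on they were 0.870 (0.810 to 0.933), 0.608 (0.503 to 0.733) and 0.906 (0.824 to 0.996). Hence the RNA ratios were below 1 in the 3 covered sections of all pairs, with the first section of poly(A) RNA within counting error of 1. In a fit with the sections as features, edgeR's log2 changes were -1.42 (SE 0.39), -1.48 (SE 0.59) and -1.15 (SE 0.41), with adjusted p = 0.673, 0.734 and 0.734 over 4358 features.

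The distal end of 20A had other values than its body, and these differed between the library sets. The first 3 bins, singled out after their values were seen, held 10.1% of the 20A reads in shWhite replicate 1 but 79.7% in shWhite replicate 2, and 18.7% and 76.1% in the shCuff replicates. Their level in shWhite was 27.4 RPM in replicate 1 and 144.7 RPM in replicate 2. The other 37 bins had 244.5 RPM and 36.9 RPM. The total RNA level of replicate 2 was thus higher at the distal end and lower in the body than that of replicate 1. In the AC pair the first 3 bins went from 27.4 to 29.1 RPM, a ratio of 1.06 (0.784 to 1.44), and the other 37 bins had 0.517 (0.456 to 0.585). In the ES pair the first 3 bins had 0.249 (0.216 to 0.287) and the others 0.306 (0.235 to 0.397). In run-on the first 3 bins had 0.632 (0.567 to 0.703) and the other 37 bins 0.95 (0.892 to 1.01). The first bins thus had the higher ratio in the AC pair and the lower one in run-on, while in the ES pair the intervals of both parts overlap.

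Single bins of 20A are described next. The bin from 21392001 went from 4.17 to 6.10 RPM in the AC pair and from 89.1 to 20.2 RPM in the ES pair. The bin from 21424001 went from 52.4 to 31.2 RPM and from 2.99 RPM to 0 reads, and in poly(A) RNA from 5.14 to 1.55 RPM, while its run-on went from 38.1 to 63.3 RPM. The total RNA and poly(A) levels of that bin were lower in shCuff and its run-on level was higher. The bin from 21397001 went from 14.0 to 3.73 RPM and from 2.64 RPM to 0 reads in total RNA, from 57.0 to 66.9 RPM in run-on, and from 5 to 14 reads in poly(A) RNA, where it was not lower. The bin from 21427001, the bin of 20A with the most poly(A) reads, went from 34.8 to 19.997 RPM and from 4.22 to 0.545 RPM in total RNA. It went from 28.7 to 18.3 RPM in poly(A) RNA and from 11.1 to 11.1 RPM in run-on. In the bin from 21425001, run-on was highest, at 221.0 RPM in the control and 180.7 RPM in shCuff. Its poly(A) level went from 4.54 to 1.10 RPM. The bins from 21398001 and 21406001 were picked for a large run-on change in each direction, from 11.9 to 33.4 RPM and from 22.1 to 7.17 RPM. Of 20 bins of 20A with at least 20 run-on reads over the pair, 1 was at least 2-fold higher (5%) and 3 lower (15%). The genome had 22.5% higher and 17.0% lower. None of these bins passed edgeR's test, the lowest unadjusted p being 0.0201 for 21424001 with an adjusted p of 0.963.

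**Figure D3:**
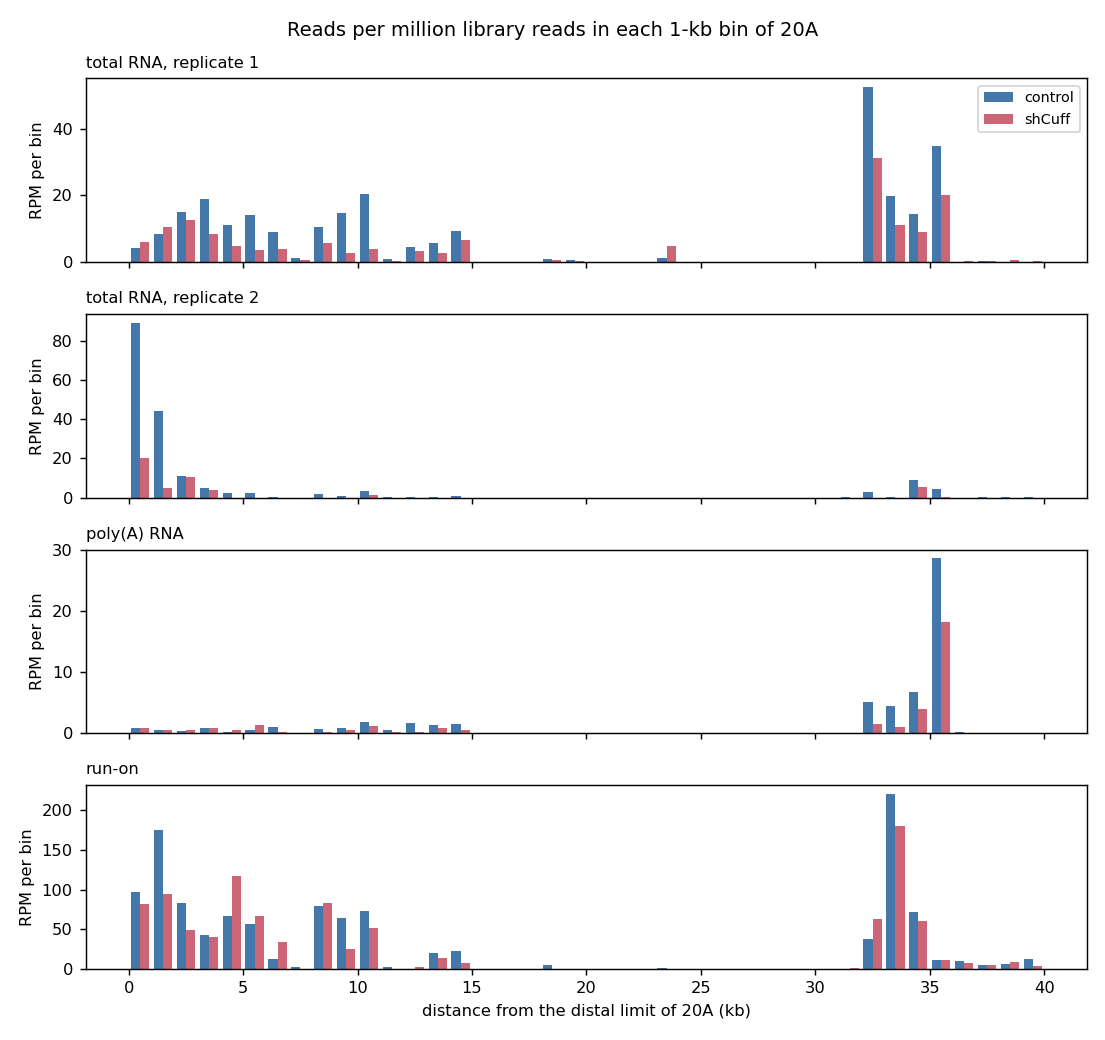
RPM in each 1-kb bin of 20A, by distance in kb from its distal limit, in control (blue) and shCuff (red) libraries of the 4 pairs. In replicate 2 the first 3 bins hold 79.7% of the control reads, while in replicate 1 they hold 10.1%, and in poly(A) RNA 1 bin near the proximal end holds 49.1%.

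Flamenco was compared in the same way, as the cluster that is active in cells without the hairpin. Its total RNA was 0.615 and 0.193 RPKM in shWhite and 0.528 and 0.148 RPKM in shCuff, so the groups overlapped. The ratio was 0.858 (0.733 to 1.00) in the AC pair and 0.767 (0.627 to 0.938) in the ES pair. In the same fit as 20A, edgeR's log2 change was -0.30 (SE 0.32, adjusted p = 0.822). Fits that left out a library had no term for library set, so they compare libraries across the sets. In them the sign turned without shWhite replicate 1 (0.80) and without shCuff replicate 2 (0.39). The log2 change ran to -1.45 without shCuff replicate 1 and -0.87 without shWhite replicate 2. In poly(A) RNA flamenco went from 53 to 43 reads, or 0.0346 to 0.0215 RPKM, a ratio of 0.621 (0.405 to 0.946). In run-on it went from 2.37 to 2.18 RPKM, a ratio of 0.918 (0.841 to 1.00). The poly(A) interval lies just below 1 and the run-on interval includes it.

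Relative to the rest of the stretch, the log2 change of flamenco was -0.14 in total RNA, with an exact permutation p of 0.667, two-sided. The log2 ratio of 20A to flamenco was 1.27 and 2.36 in shWhite and 0.69 and 0.81 in shCuff, which do not overlap. Its change was -1.07, with an exact permutation p of 0.333, two-sided, again the smallest possible. The 2 clusters were therefore not shown to differ in response by a test over libraries. Their ratio intervals do not overlap in either total RNA pair, but do overlap in both other assays.

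Along flamenco, signal was highest in the first 50 kb. That part held 72.0% of its run-on reads in the control and 67.8% in shCuff, and in total RNA 50.3% and 69.2% in the shWhite replicates and 58.2% and 59.3% in the shCuff replicates. The first 10 kb alone held 36.7% of run-on reads in the control, or 159.1 RPM, against 122.2 RPM in shCuff, with a ratio of 0.768 (0.659 to 0.895). The third 10 kb had 98.0 and 87.2 RPM and the fourth 48.8 and 50.2 RPM. The 6 sections that follow were weakly covered, each with at most 26 run-on reads in a library. Beyond them, run-on was higher in sections 11, 13, 14 and 16 and low in the others. Section 11 had 31.2 RPM in the control and 17.5 RPM in shCuff, with a ratio of 0.562 (0.379 to 0.825). Section 13 had 9.02 and 21.1 RPM, a ratio of 2.34 (1.40 to 4.04), section 14 had 20.9 and 27.1 RPM and section 16 had 20.5 and 29.9 RPM. Section 12, which lies between 11 and 13, had 4.10 and 9.16 RPM. Of 12 sections with at least 20 run-on reads over the pair, 6 had a ratio below 1. The intervals lay below 1 in 2 and above 1 in 4 sections.

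In total RNA of the AC pair, 7 of 10 flamenco sections with at least 20 reads had a ratio below 1, from 0.402 to 1.24 in all, and no interval excluded 1. In the ES pair only 5 sections had 20 reads and their ratios ran from 0.205 to 5.27. The first section there went from 53 to 14 reads and the thirteenth from 5 to 34, whereas the fourteenth, with 19 reads in shWhite, held 0 in shCuff, which allows up to 0.408 RPM. The shCuff library of that pair is the one with few bins of 1 to 3 reads. Among the bins with the highest total RNA in shWhite, the bin from 21527001 had 8.34 and 4.07 RPM in the AC pair, 4.04 and 0.545 RPM in the ES pair and 25.4 and 4.38 RPM in run-on. Its ratios were 0.488, 0.135 and 0.172, and no other of those 5 bins was lower in all 3 pairs. The bin from 21508001, near the distal end, had 4.17 and 4.75 RPM in the AC pair, 2.29 RPM and 0 reads in the ES pair and 15.2 and 16.3 RPM in run-on. The bin from 21622001 went from 4.51 to 15.9 RPM in run-on and from 2 to 34 reads in the ES pair, but from 6 to 2 reads in the AC pair.

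**Figure D4:**
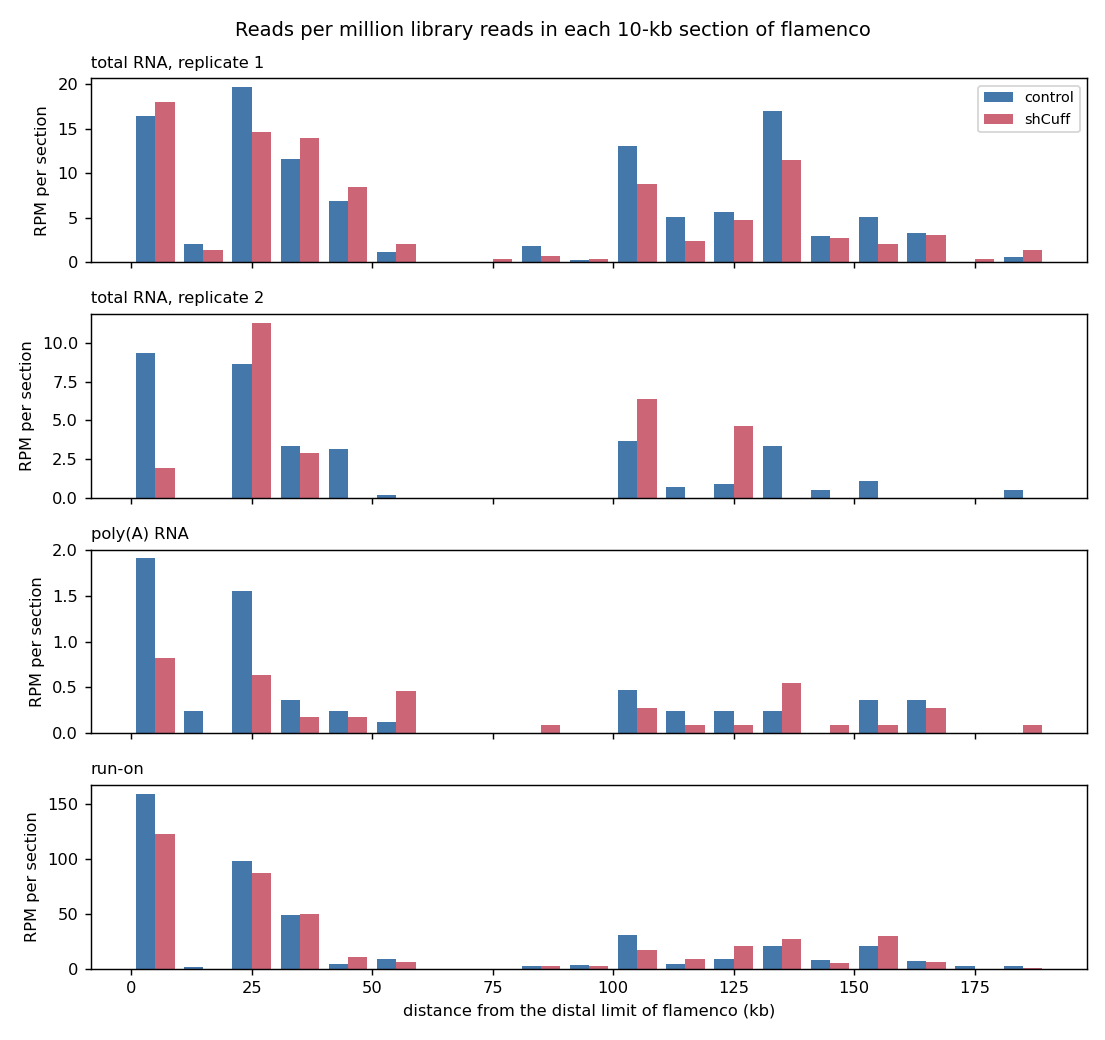
RPM in each section of up to 10 kb of flamenco, by distance in kb from its distal limit, in control (blue) and shCuff (red) libraries of the 4 pairs. Run-on is highest in the first section, at 159.1 RPM in the control and 122.2 RPM in shCuff, and beyond it the taller bar is the control in some sections and shCuff in others.

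In the rest of the stretch RNA levels were closer to those of the controls than in 20A, while the run-on ratio was lower than in either cluster. Its total RNA was 3.22 and 2.63 RPKM in shWhite and 2.80 and 2.42 RPKM in shCuff, and edgeR's log2 change was -0.16 (SE 0.40, adjusted p = 0.909 over 4321 features). Its poly(A) ratio was 1.03 (1.02 to 1.04). In run-on it went from 4.32 to 3.18 RPKM, a ratio of 0.736 (0.721 to 0.753), which is below the intervals of 20A and of flamenco. The median run-on ratio was 0.729 over 60 windows of the stretch with at least 50 reads and 0.978 over 6792 such windows of the genome. The run-on control carries no hairpin, and with 1 library per group the genotype and the library cannot be told apart.

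Within the rest, the segment between the clusters had the lowest run-on ratio, at 0.523 (0.489 to 0.559), against 0.656 (0.629 to 0.684) proximal of flamenco and 0.827 (0.804 to 0.850) distal of 20A. Its total RNA was 5.21 and 4.76 RPKM in shWhite and 4.94 and 6.27 RPKM in shCuff. A block of 4 bins from 21471001 to 21475000, singled out after its values were seen, held most of its reads. In run-on the block went from 850.1 to 405.3 RPM, a ratio of 0.477 (0.442 to 0.514). Its poly(A) level went from 352.8 to 409.9 RPM, and its total RNA from 353.2 to 331.1 and from 290.2 to 388.3 RPM. Its run-on was thus lower in shCuff while its poly(A) RNA was not. The bins from 21472001 and 21473001 had the highest run-on of the stretch in the control, at 314.9 and 318.6 RPM, and had 154.9 and 133.0 RPM in shCuff. In the ES pair these neighbours went opposite ways in total RNA, from 73.1 to 35.7 RPM and from 107.4 to 272.7 RPM, while in the AC pair they went from 108.4 to 99.99 and from 115.6 to 90.8 RPM.

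No bin of the stretch was called in total RNA. Of its 2023 bins, 265 had a mean of at least 1 RPKM over the 4 libraries and were tested, 18 of them in 20A and 26 in flamenco. Among these 265, edgeR's test called 0, against 29 of 27388 bins (0.106%) in the genome, with 0.0767% higher and 0.0292% lower, and DESeq2 and limma also called 0. At an unadjusted p under 0.05 edgeR had 9 bins of the stretch, 7 of them lower, and 4 of the 9 lay in 20A and 0 in flamenco. In the genome 1264 of 27388 bins had such a p, so the stretch as a whole held no larger share of them. The tested bins of 20A had a median log2 change of -1.59 with 17 of 18 below 0, those of flamenco -1.31 with 17 of 26 below 0, and those of the rest -0.20, against -0.02 in the genome. The filter uses the level over all 4 libraries, so these medians describe the bins that passed and not all bins of a cluster. Bins that passed can still hold few reads. In flamenco only 5 bins held at least 20 reads over the AC pair and 7 over the ES pair. Summed over all its bins, flamenco had a log2 change of -0.30. In the window fit 35 windows of the stretch outside the clusters were tested, and 0 were called or had an unadjusted p under 0.05. The windows with the lowest p had an edgeR log2 change of -0.73 (SE 0.34) from 21850001 and of -0.48 (SE 0.24) from 21870001. In the other direction stood the window from 21500001, the 2 kb just distal of flamenco, with 2 and 31 reads in shWhite and 9 and 83 in shCuff, and the window from 21900001, with 12 and 75 reads and 16 and 265. Each of these 4 had an edgeR adjusted p of 0.736 or 0.738.

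Bins past 2-fold were counted in each pair. In the AC pair 17 bins of 20A held at least 20 reads, of which 7 were at least 2-fold lower and 0 higher, and of 5 bins of flamenco 2 were lower and 0 higher, against 3.03% lower and 7.89% higher in the genome. In the ES pair, 4 of 7 bins of 20A were lower and 0 higher, and of 7 bins of flamenco 1 was lower and 5 were higher, against 23.2% lower and 29.3% higher. In poly(A) RNA, 2 of 6 bins of 20A were lower, against 3.23% lower and 6.83% higher in the genome, and no bin of flamenco held 20 reads. In run-on 3 of 20 bins of 20A were lower and 1 higher, and of 32 bins of flamenco 5 were lower and 7 higher, against 17% lower and 22.5% higher. In run-on the share of lower bins was 15% in 20A and 15.6% in flamenco, near the background, and the share of higher bins was 21.9% in flamenco but 5% in 20A, below it. In RNA the share of lower bins of 20A was above the background in each pair, at 41.2% in the AC pair, 57.1% in the ES pair and 33.3% in poly(A) RNA. That of flamenco was 40% in the AC pair and 14.3% in the ES pair, above and below the background, on 5 and 7 bins. Bins with few reads pass the filter through the library where they are high, so these counts describe covered bins.

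For the whole stretch, the AC pair had 18 lower (12.3%) and 7 higher (4.79%) of 146 bins, against 3.03% and 7.89% in the genome. The ES pair had 67 lower (28.2%) and 69 higher (29.0%) of 238, against 23.2% and 29.3%. Poly(A) RNA had 11 lower (6.75%) and 10 higher (6.13%) of 163, against 3.23% and 6.83%. Run-on had 76 lower (22.3%) and 46 higher (13.5%) of 341, against 17.0% and 22.5%. Outside the clusters, the 6 bins with the highest total RNA in shWhite all lay distal of 20A and had total RNA ratios from 0.668 to 0.862 in the AC pair and from 0.583 to 1.23 in the ES pair. Their poly(A) ratios ran from 0.794 to 1.16, so none was near the poly(A) ratio of 20A.

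A bin that stood apart outside the clusters lay from 22310001 to 22311000. It held 0 reads in all 4 control libraries and reads in all 4 shCuff libraries, namely 11 and 16 in total RNA, 44 in poly(A) RNA and, for run-on, 11, or 3.73, 2.18, 4.02 and 4.38 RPM. A count of 0 allows up to 0.359 RPM in the poly(A) control and 1.23 RPM in the run-on control. It was the only 1 of the 2023 bins of the stretch with reads in all 4 shCuff libraries and in no control library. That pattern was found in 26 of the 168744 bins of the genome. The reverse pattern was found in 7 of the 2023 bins of the stretch and 150 of the 168744 of the genome. Both patterns thus took a larger share of bins in the stretch than in the genome, on few bins. The reverse pattern needs 0 reads in shCuff replicate 2, which covered 337 bins of the stretch, against 521 in shWhite replicate 2. The first pattern rests, in the stretch, on the bin from 22310001 alone. edgeR's test did not call the bin, with an unadjusted p of 0.0628 and an adjusted p of 0.963. The bin from 21849001 was lower in shCuff in all pairs, at 27.4 and 13.9 RPM, 6.15 and 2.18 RPM, 30.4 and 9.97 RPM in poly(A) RNA and 39.8 and 5.97 RPM in run-on (edgeR adjusted p = 0.963 in total RNA). The bin from 21813001 went from 0 to 56 reads in poly(A) RNA but had 3 and 3 reads in run-on. In the ES pair the bin from 21864001 went from 1 to 80 reads, and it held 0 and 2 reads in the AC pair. The bin from 21176001 went from 25.4 to 0.796 RPM in run-on and held 0 to 4 reads in each RNA library. The bin from 21255001 went from 46.1 to 4.22 RPM in the ES pair but from 44.4 to 40.7 RPM in the AC pair, so the replicate 1 ratio was 0.917 and the replicate 2 ratio 0.0916. The bin from 20906001 went from 11.3 to 22.0 RPM and from 80.5 to 182.3 RPM in total RNA, with 15.8 and 15.001 RPM in poly(A) RNA.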

How the data were processed

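Ovary RNA was measured in 8 libraries as reads per 1-kb bin of dm3. Adapters were cut with cutadapt and reads mapped with Bowtie 0.12.7, per the submitters' processing notes. How reads were counted is not given in those sources. Deposited counts were whole numbers in the first library set (AC in the titles: total RNA replicate 1, poly(A) RNA). In the second set (ES: total RNA replicate 2, run-on) 1 to 8 bins were not whole, 1 of them in 20A, so those deposited estimated counts were rounded. The deposited RPKM summed to 999954 to 1000000 per library. File names of the sets differ in a code that may be an alignment setting, so levels are compared across sets with care. All file names share a further code that may be a limit on reads with several matches; its meaning is not stated, so whether a bin without reads lacks RNA or lacks sequence that reads can be placed in cannot be told apart.

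Members and lists were chosen with earlier results of these data known. Total RNA was tested with edgeR 4.0.16 (quasi-likelihood, R 4.3.3) on counts scaled to library totals, with terms for genotype and library set, which leaves 1 residual degree of freedom, and Benjamini-Hochberg adjustment over all features (threshold 0.05). Bins and windows needed a mean of 1 RPKM, and both clusters were kept. As a check of this pairing, same-set deviations from the group means had a correlation of 0.587 across 27388 bins. DESeq2 1.42.0 and limma 3.58.1 (RPKM + 1 and RPKM + 0.1) were alternatives. Single pairs have no test. A bin past 2-fold had at least 20 reads over its pair, with 0.5 reads added. Named bins are the 5 highest in total RNA of shWhite per cluster, the 6 highest outside, the 3 lowest p in each direction, the 2 highest in run-on and the 2 largest changes of poly(A) and run-on inside and outside the clusters, and named windows are the 2 with the lowest p in each direction. Bins and blocks chosen after their values were seen are said to be so. Of the fits, only edgeR's fit of 10-kb windows was tested on simulated counts, with changes larger than that of 20A.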

Additional observations from a re-analysis of the deposited data

How the results depend on the processing

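Of 159 alternative values over 38 results, 116 kept their direction and their size or call. In total RNA, 20A passed edgeR's test only without a filter on low values (log2 change -1.37, adjusted p = 0.0036). That fit called 98 of 12757 features. The adjusted p of 20A was 0.0510 by DESeq2 and 0.251 by edgeR with TMM factors. The fits that left out a library had no term for library set, so they also carry differences in level between the sets. Leaving out 1 library at a time gave -2.26 to -0.54 for 20A, -1.45 to 0.80 for flamenco (0.39 without shCuff replicate 2) and -0.30 to -0.01 for the rest, where a lone library is assumed to vary like the others. Relative to the rest, it gave -1.96 to -0.46 for 20A and -0.95 to 0.67 for flamenco (0.55 without shWhite replicate 1). Without the replicate block for library set, the log2 change was -1.16 for 20A, -0.26 for flamenco and -0.16 for the rest (adjusted p = 1.00 each), and 0 bins of the stretch were called.

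Without its first 3 bins, chosen after seeing the data, 20A had a ratio of 0.306 in the ES pair and 0.95 in run-on, a poly(A) to total RNA ratio of 0.252 in shCuff, and run-on over total RNA of 22.2 in the controls and 69.0 in shCuff. With limits 5 kb inward, 20A had 0.456 in poly(A) RNA, poly(A) to total RNA ratios of 0.149 in shWhite and 0.133 in shCuff, and run-on over total RNA of 27.5 and 86.4, and flamenco had 12.0 in shCuff. Without its bin with most reads, these were 0.126, 0.115, 11.7 and 17.4 for 20A, while the rest had 0.857 in the ES pair, 1.07 for poly(A) to total RNA in shCuff, and 1.62 and 1.44 for run-on over total RNA. Without the 4 bins between the clusters, also chosen after seeing the data, the rest had 0.893 in the ES pair, 0.768 in run-on, and 1.56 and 1.34 for run-on over total RNA. With library totals that leave out the most abundant bin, the rest had 0.888 in the AC pair and poly(A) to total RNA ratios of 0.940 and 1.09.

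With at least 50 reads, bins past 2-fold were 3 higher and 9 lower in the AC pair, 23 and 43 in the ES pair, 5 and 7 in poly(A) RNA, and 15 and 39 in run-on. With both another filter (a mean of at least 1 RPKM over the pair) and another scale, log2(RPKM + 1), other numbers of bins passed. The AC pair then had 18 higher of 236 (7.63%, genome 10.4%) and poly(A) RNA 4 higher of 166 (2.41%, genome 3.19%). Run-on had 81 higher and 229 lower of 639 (12.7% and 35.8%, genome 24.5% and 20.3%). The cause of these shifts was not tested. Poly(A) RNA and run-on have 1 library per group, and flamenco's 53 and 43 poly(A) reads limit what can be seen there.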
